A study of Mus musculus with 35 samples.

Results

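Mouse embryonic stem cells (ESCs) of the wild-type (WT) arm were followed over the first 9 days of a culture course, and RNA at day 9 was compared with RNA at day 0. The comparison took the 2 day 9 libraries and the 2 day 0 libraries labelled wild type, with replicates 1 and 2 of day 1 and of day 3 as intermediate points, 8 of the 35 libraries in the table. Replicate 3 of day 1 was left out, a library with 48.7% of its reads in exons against 21.4% to 22.0% in the 8 used. All 4 days share 1 genotype, the unrecombined *Dnmt1* loxP/loxP line, which in the knockout (KO) arm loses *Dnmt1*, the maintenance DNA methyltransferase, once tamoxifen induces Cre. The labels give an E14 background, whereas the study's methods describe a C57BL/6 line. The cells grew on gelatin in serum with LIF, with or without feeder fibroblasts, and the sources used here state neither which cultures held feeders nor whether the control cells received tamoxifen. The line is a single one, so a day is compared with another day of the same line. The 2 replicates of a day are biological according to the series' design text, with no culture named, and p-values measure the spread between these libraries. Since day 0, day 1 and day 3 libraries enter several comparisons, the values of the days are set side by side and not counted as independent.

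Serum and LIF hold ESCs in a self-renewing state in which single cells drift between a naive state, resembling the early epiblast, and states closer to differentiation. LIF acts through its receptor chains and JAK kinases on STAT3, which drives transcription factors of the naive network such as KLF4. FGF-ERK and Nodal signalling push in the other direction, and a small share of ESCs in such cultures resembles primitive endoderm, the lineage that secretes basement membrane and takes up proteins from its surroundings. Feeder fibroblasts, where present, add collagens and other matrix transcripts to the RNA of the culture.

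Libraries were total RNA depleted of ribosomal RNA and read in pairs of 100 bases. The deposited values are reads scaled to exon length and library size (RPKM), and the reads recovered from their steps gave libraries of 24.3 to 70.7 mega-reads, with the extremes both at day 9 (replicate 1 the deepest, replicate 2 the shallowest). Replicates of a day correlated at 0.9945 to 0.9958 across genes on the log2 scale. *Dnmt1* (chromosome 9, 20711650 to 20757317, minus strand, NCBIM37) had 18.2 and 18.4 RPKM on day 0, 17.9 and 18.1 on day 1, 18.97 and 18.1 on day 3 and 19.9 and 19.5 on day 9. These 8 values lay close together, and the day 9 difference was not called (log2 difference 0.10, SE 0.0470, limma adjusted p 0.112), although it passed under quantile normalization (adjusted p 0.00822) and with voom on recovered reads (adjusted p 0.0359). Day 6 was left out because *Dnmt1* went against its labels there, with 3.22 and 3.40 RPKM in the libraries labelled WT and 20.2 and 20.4 RPKM in those labelled KO. *Pou5f1*, the core pluripotency factor that defines ESCs, was expressed at every day, with 77.6 and 80.2 RPKM on day 0, 58.1 and 53.4 on day 1, 53.3 and 53.7 on day 3 and 61.8 and 58.6 on day 9.

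Differences between day 9 and day 0 were many and mostly small. Of 10582 genes tested with limma, 1793 were higher at day 9 (16.9%) and 1605 were lower (15.2%) at a Benjamini-Hochberg adjusted p under 0.05. Their median absolute log2 difference was 0.339 (all log2 differences are on the log2(RPKM + 0.1) scale), 629 of them passed 0.5, and only 19 higher and 17 lower genes passed 1, a 2-fold difference. The median over all tested genes was 0.02. The balance of directions depended on scaling: 52.8% of the calls were higher on the deposited scale, 40.3% after each library was centred on its median (1431 higher, 2117 lower) and 59.8% with voom (2234 higher, 1502 lower). Leaving out the shallow second day 9 library left 828 higher and 716 lower genes, and leaving out the second day 0 library left 1054 lower. When all 34 libraries labelled WT or KO shared 1 estimate of the spread, 6 genes were higher and 6 lower. The groups containing the third day 1 libraries had a median SD of 0.599 (WT) and 0.592 (KO) in that fit, against 0.0558 to 0.196 in the other groups.

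**Figure D1:**
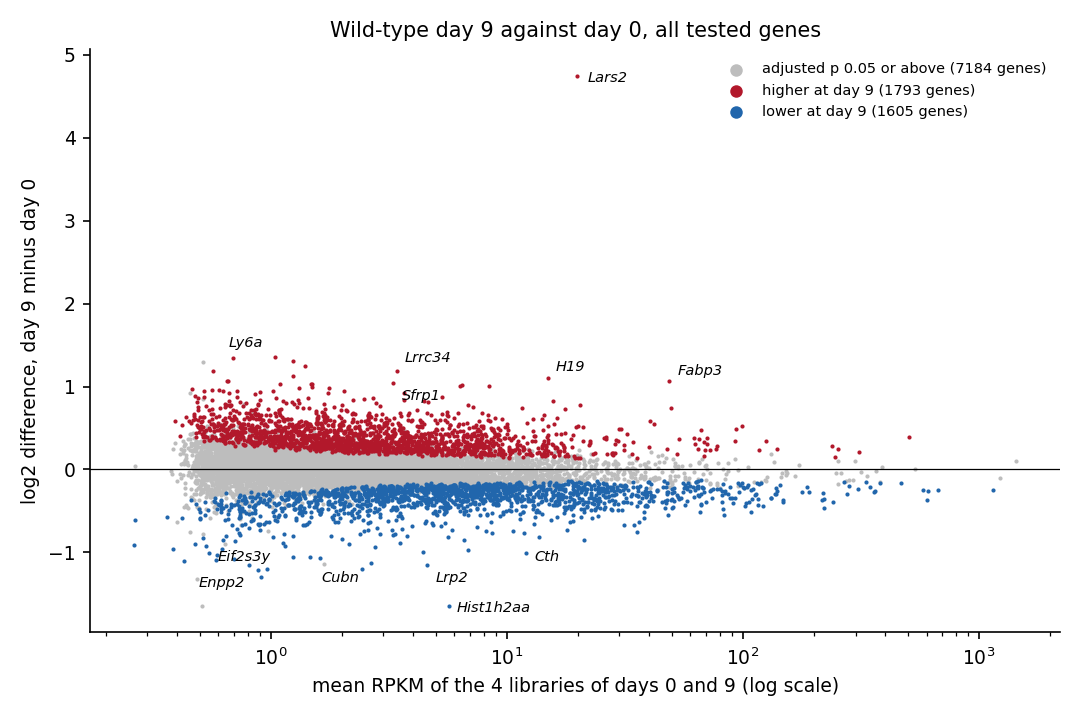
Log2 difference of RPKM between day 9 and day 0 (y axis) against the mean level of days 0 and 9 (x axis, RPKM, log scale) for the 10582 genes tested. Coloured points are the 1793 genes higher and 1605 genes lower at an adjusted p under 0.05, and most lie within 1 log2 unit of 0.

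Days 1 and 3 were compared with the same day 0 libraries. On day 1, 1617 genes were higher (15.3%) and 1105 lower (10.4%) than at day 0. On day 3, 2171 were higher (20.5%) and 1338 lower (12.6%), a split that turned to 39.1% higher under median centring (1399 higher, 2176 lower) and was 49.5% higher under quantile normalization. The genes called higher at day 9 had a median log2 difference from day 0 of 0.23 at day 1, 0.31 at day 3 and 0.36 at day 9, and those called lower had -0.17, -0.22 and -0.31. These genes were chosen on the same day 0 libraries, which by itself draws all 3 medians the same way, so nothing is read from their order. A second pattern ran through the middle of the course: in a contrast of days 1 and 3 with days 0 and 9, 1545 genes were higher in the middle (14.6%) and 829 lower (7.83%), and the median of all genes in that contrast was 0.02. Centring made this 1071 higher and 1376 lower, and quantile normalization 1148 and 1125. All gene values below are on the deposited scale.

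The naive pluripotency genes that were called at day 9 were all higher. Of 19 tested, 12 were higher at day 9 and none was lower, with a median log2 difference of 0.42, beside 16.9% and 15.2% of all genes, and the count was 8 without the second day 9 library. On day 3, 17 of the 19 were higher. *Klf4*, a direct target of STAT3 that sustains the naive network, had 4.43 and 3.90 RPKM on day 0, 4.88 and 5.94 on day 1, 7.12 and 5.798 on day 3 and 8.09 and 8.82 on day 9. Both day 9 values exceeded every earlier one, while days 1 and 3 overlapped (day 9 against day 0: log2 difference 1.01, SE 0.113, limma adjusted p 0.000580). *Klf2*, a related factor, had 3.17 and 2.68 RPKM on day 0, 3.85 and 5.14 on day 1, 6.77 and 6.22 on day 3 and 4.95 and 4.57 on day 9. Its peak was at day 3, with day 9 in between and above day 0 (log2 difference 0.69, SE 0.122, limma adjusted p 0.00286). *Tcl1*, an AKT cofactor expressed in naive cells, took the same course, with 3.94 and 4.25 RPKM on day 0, 4.57 and 5.34 on day 1, 9.05 and 9.43 on day 3 and 6.11 and 7.04 on day 9 (log2 difference 0.67, SE 0.0873, limma adjusted p 0.000838). *Nr5a2*, a nuclear receptor of the early embryo, had 1.55 and 1.44 RPKM on day 0 and 2.33 and 2.44 on day 9 (log2 difference 0.64, SE 0.0747, limma adjusted p 0.000593). *Prdm14*, which represses *Dnmt3b* and differentiation genes, was low throughout, with 0.590 and 0.658 RPKM on day 0 and 1.02 and 1.01 on day 9 (log2 difference 0.62, SE 0.117, limma adjusted p 0.00355). In each of *Tcl1*, *Nr5a2* and *Prdm14* both day 9 values exceeded both day 0 values. *Esrrb* had 6.15 and 6.84 RPKM on day 0 and 8.998 and 9.71 on day 9, and *Tcfcp2l1*, another LIF target, 2.75 and 3.11 RPKM on day 0 and 4.42 and 4.93 on day 9. Both rose in the test with all 8 libraries (0.52, adjusted p 0.00120, and 0.66, adjusted p 0.000661). *Zfp42*, *Dppa3*, *Dppa5a*, *Nr0b1*, *Gbx2*, *Fbxo15* and *Dazl* were not called at day 9, with log2 differences from -0.14 to 0.19.

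Receptor chains of the LIF pathway were among the genes that rose. Of 9 pathway genes tested, 6 were higher and 1 was lower, beside 16.9% and 15.2% of all genes, with a median of 0.32. *Lifr*, the ligand-binding chain, had 3.05 and 3.19 RPKM on day 0, 3.06 and 3.08 on day 1, 3.90 and 3.97 on day 3 and 4.56 and 4.89 on day 9. Its day 1 values lay within the range of day 0, and those of days 3 and 9 lay above it (day 9: log2 difference 0.58, SE 0.0617, limma adjusted p 0.000548). The shared signalling chain *Il6st* had 3.44 and 3.77 RPKM on day 0 and 5.11 and 5.23 on day 9 (log2 difference 0.51, SE 0.0633, limma adjusted p 0.000742), and the kinase *Jak1* had 1.85 and 1.89 RPKM on day 0 and 2.87 and 2.57 on day 9 (log2 difference 0.51, SE 0.0766, limma adjusted p 0.00135). For *Il6st* and *Jak1* both day 9 values lay above both day 0 values. *Stat3* itself had 1.85 and 1.80 RPKM on day 0 and 1.88 and 1.87 on day 9 and was not called (log2 difference 0.04, SE 0.0804, limma adjusted p 0.741). *Socs3*, the feedback inhibitor that STAT3 induces, first went down, with 8.32 and 8.01 RPKM on day 0, 5.92 and 5.79 on day 1, 7.19 and 6.76 on day 3 and 12.3 and 11.6 on day 9. Its day 1 values were below both day 0 values, and its day 9 values were above them (log2 difference 0.54, SE 0.0564, limma adjusted p 0.000548). *Pim1*, a kinase that STAT3 also induces, went the other way, with 21.5 and 22.5 RPKM on day 0 and 16.4 and 15.6 on day 9 (log2 difference -0.46, SE 0.0636, limma adjusted p 0.00105).

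Genes of formative and primed pluripotency, the states that follow the naive one, were more often lower, with 5 of 9 lower and 2 higher (median -0.35), beside 15.2% of all genes lower and 16.9% higher, and 3 lower and 1 higher without the second day 9 library. These counts are for day 9, and the list did not fall evenly over the course. Its median was -0.22 at day 1 and 0.15 at day 3. At day 3, 3 genes were higher and 3 lower, beside 20.5% and 12.6% of all genes. Of the genes lower at day 9, the POU factor *Pou3f1* had 3.08 and 3.02 RPKM on day 0, 2.54 and 2.68 on day 1, 2.12 and 1.61 on day 3 and 2.02 and 1.48 on day 9 (log2 difference -0.78, SE 0.142, limma adjusted p 0.00299). *Dnmt3b*, a de novo DNA methyltransferase, had 28.3 and 26.4 RPKM on day 0, 22.6 and 19.1 on day 1, 15.6 and 13.7 on day 3 and 17.3 and 13.2 on day 9. All later libraries were below day 0 (log2 difference -0.85, SE 0.118, limma adjusted p 0.00105). *Dnmt3a*, the other de novo enzyme, had 5.53 and 4.28 RPKM on day 0 and 3.45 and 2.60 on day 9 (log2 difference -0.68, SE 0.145, limma adjusted p 0.00615), and without the second day 9 library its adjusted p was 0.054. *Dnmt3l*, the catalytically inactive partner of both, had 32.0 and 33.3 RPKM on day 0 and 23.5 and 22.9 on day 9 (log2 difference -0.49, SE 0.0545, limma adjusted p 0.000548). For all 3 the day 9 values lay below both day 0 values. Among the 14 genes of the DNA methylation machinery, which include these 3, *Trim28*, the corepressor recruited by zinc finger proteins, was also lower (98.0 and 93.8 RPKM on day 0 and 71.6 and 66.7 on day 9, log2 difference -0.47, adjusted p 0.000581). *Tet1*, a 5-methylcytosine oxidase, was higher (7.77 and 7.80 RPKM on day 0 and 10.2 and 10.5 on day 9, log2 difference 0.41, adjusted p 0.00106). *Zfp57*, which protects methylation at imprints, was higher as well (21.9 and 23.9 RPKM on day 0 and 28.8 and 31.2 on day 9, log2 difference 0.39, adjusted p 0.00198). In the fit of all 8 libraries these 6 were the genes of this list called at day 9.

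The core pluripotency genes divided, with 3 of 14 higher and 3 lower, shares near those of all genes (16.9% and 15.2%), and a median of -0.03 that was above 0 under quantile normalization. *Pou5f1* was lower at day 9 than at day 0 in both replicates (log2 difference -0.39, SE 0.0543, limma adjusted p 0.00105). *Utf1*, a chromatin factor of ESCs, had 17.4 and 15.4 RPKM on day 0 and 23.2 and 24.0 on day 9 (log2 difference 0.52, SE 0.0894, limma adjusted p 0.00240). *Sox2*, the partner of the *Pou5f1* product, had 47.8 and 46.1 RPKM on day 0 and 59.0 and 61.6 on day 9 (log2 difference 0.36, SE 0.0530, limma adjusted p 0.00128). *Nanog* had 15.1 and 19.8 RPKM on day 0, 19.1 and 21.8 on day 1, 28.6 and 30.0 on day 3 and 23.8 and 25.7 on day 9 (log2 difference 0.51, SE 0.109, limma adjusted p 0.00651), and its adjusted p was 0.053 without the second day 9 library. For the 3 that rose, day 9 was above both day 0 values. *Lin28a*, *Gdf3* and *Zfp281* were not called, with log2 differences of -0.15, 0.04 and -0.01.

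**Figure D2:**
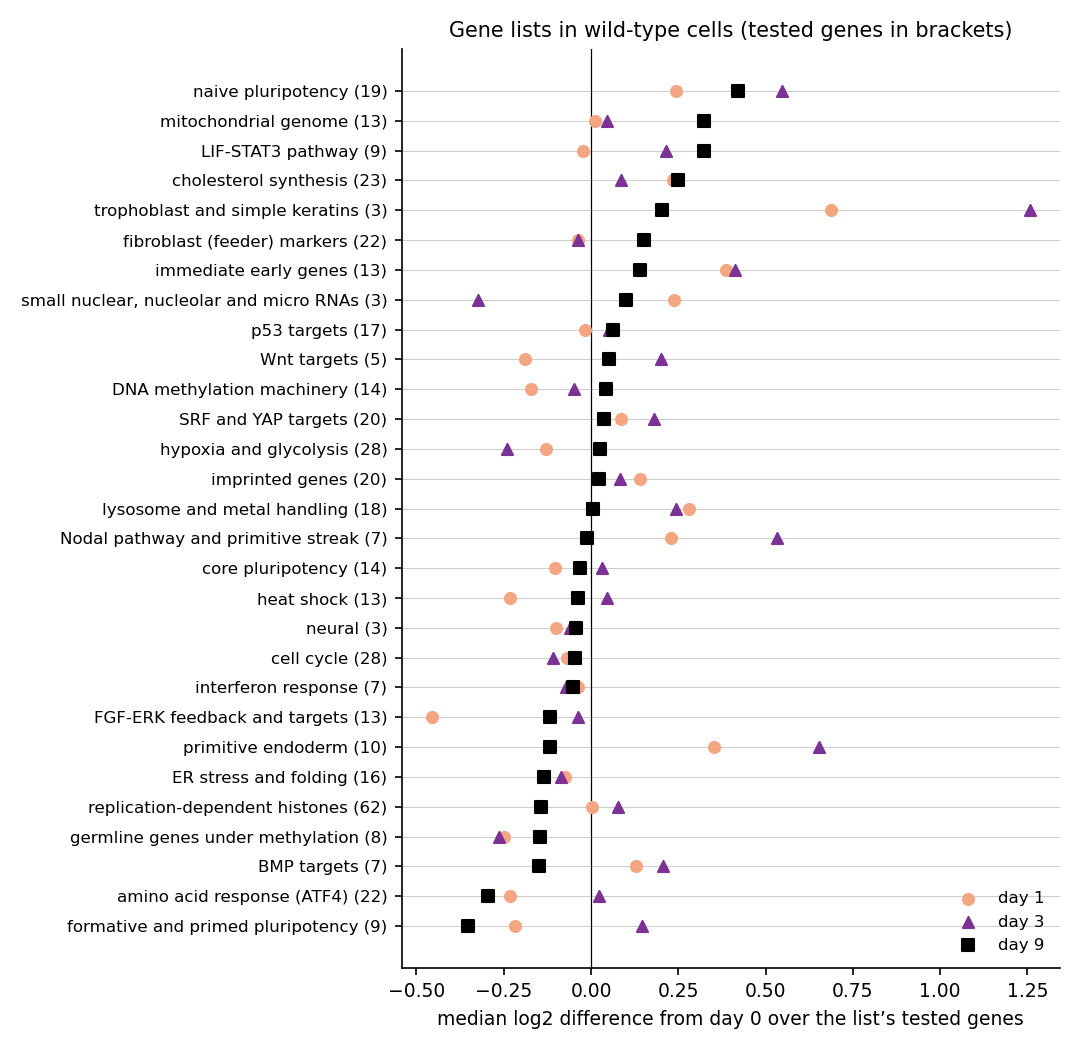
Median log2 difference from day 0 of the tested genes of each list (one row a list, x axis) at days 1, 3 and 9 in the WT libraries, for lists with at least 3 tested genes. The naive pluripotency list lies above 0 at day 9 (median 0.42) and the amino acid response list below 0 (median -0.29), while the primitive endoderm list is above 0 at day 3 (median 0.65) and below 0 at day 9 (median -0.12).

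Fibroblast markers were examined because feeder cells are fibroblasts. Of 30 markers in the table, 22 passed the filter on low values (mean of at least 0.5 RPKM), 5 of these were higher at day 9 and 2 were lower, near the 16.9% and 15.2% of all genes, and the median was 0.15. The counts thus set the list apart from other genes in neither direction, and the values of single markers follow. Their RPKM summed over the list was 106 and 95.1 on day 0, 100.4 and 100.2 on day 1, 116 and 110.3 on day 3 and 119.7 and 112 on day 9. The sums at day 9 were above those of day 0. The fibrillar collagens, the main product of fibroblasts, did not share in this, since *Col1a1* had 1.51 and 1.49 RPKM on day 0, 1.34 and 1.52 on day 1, 1.15 and 0.912 on day 3 and 1.35 and 1.32 on day 9. Neither it (log2 difference -0.15, SE 0.108, limma adjusted p 0.3001) nor *Col1a2* (2.12 and 1.80 RPKM on day 0 and 2.06 and 1.99 on day 9, log2 difference 0.05, SE 0.0930, limma adjusted p 0.711) nor *Col3a1* (1.40 and 0.987 RPKM on day 0 and 1.29 and 0.965 on day 9, log2 difference -0.07, SE 0.163, limma adjusted p 0.768) was called at day 9, and the *Col1a1* values of day 3 were lower than those of day 0. *Col6a1*, a chain of the microfibrillar collagen VI, had 1.16 and 1.14 RPKM on day 0, 1.82 and 1.92 on day 1, 1.44 and 1.21 on day 3 and 2.70 and 2.05 on day 9. Both day 9 values were above all others (log2 difference 0.98, SE 0.122, limma adjusted p 0.000742). *Thy1*, a surface protein of fibroblasts and other cells, had 1.58 and 1.14 RPKM on day 0 and 2.55 and 2.16 on day 9 (log2 difference 0.76, SE 0.133, limma adjusted p 0.00263). *Lox*, which crosslinks collagen, had 2.16 and 1.81 RPKM on day 0 and 3.08 and 2.96 on day 9 (log2 difference 0.59, SE 0.114, limma adjusted p 0.00414), and *Fn1*, fibronectin, which many cell types secrete, had 12.7 and 12.7 RPKM on day 0 and 15.5 and 18.1 on day 9 (log2 difference 0.40, SE 0.0729, limma adjusted p 0.00324). The day 9 values of *Thy1*, *Lox* and *Fn1* did not overlap those of day 0. Of the markers called lower, *Cnn1*, calponin of smooth muscle and cultured fibroblasts, had 1.05 and 0.838 RPKM on day 0 and 0.621 and 0.625 on day 9 (log2 difference -0.52, SE 0.111, limma adjusted p 0.00621). *Acta2* had 6.81 and 5.61 RPKM on day 0 and 5.23 and 4.73 on day 9 and lost its call in 4 fits that left out 1 library (adjusted p 0.0524 to 0.232). The other chains of collagen VI did not reach 1 RPKM in any WT library (at most 0.56 for *Col6a2* and 0.79 for *Col6a3*), nor did the defining stromal markers *Dcn* (at most 0.13), *Lum* (0.082), *Postn* (0.17), *Pdgfrb* (0.38), *Prrx1* (0.33) and *Twist2* (0.18). Leaving out 1 day 0 or day 9 library at a time gave 4 to 7 higher and 1 to 4 lower markers, the split being 4 and 4 without the second day 0 library. In bulk RNA, fewer cells of a type and less RNA per cell cannot be told apart. The part of fibroblast RNA in the other differences between the days was not tested.

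In the KO arm, where *Dnmt1* was lost, the list rose more. Its sum was 109.5 and 109 RPKM at day 0 and 215 and 195 at day 9, and 20 of the 22 markers were higher and 1 was lower (median 0.87) beside 25.4% of all genes higher and 22.2% lower in that comparison. The change was larger in KO than in WT for 16 markers and smaller for none, by the interaction term of the fit with 16 libraries, which called 13.3% of all genes in the first direction and 11.4% in the second. *Col1a1* reached 1.89 and 1.90 RPKM in KO at day 9 from 1.38 and 1.19 at day 0 (difference of the 2 changes 0.68, limma adjusted p 0.00305).

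**Figure D3:**
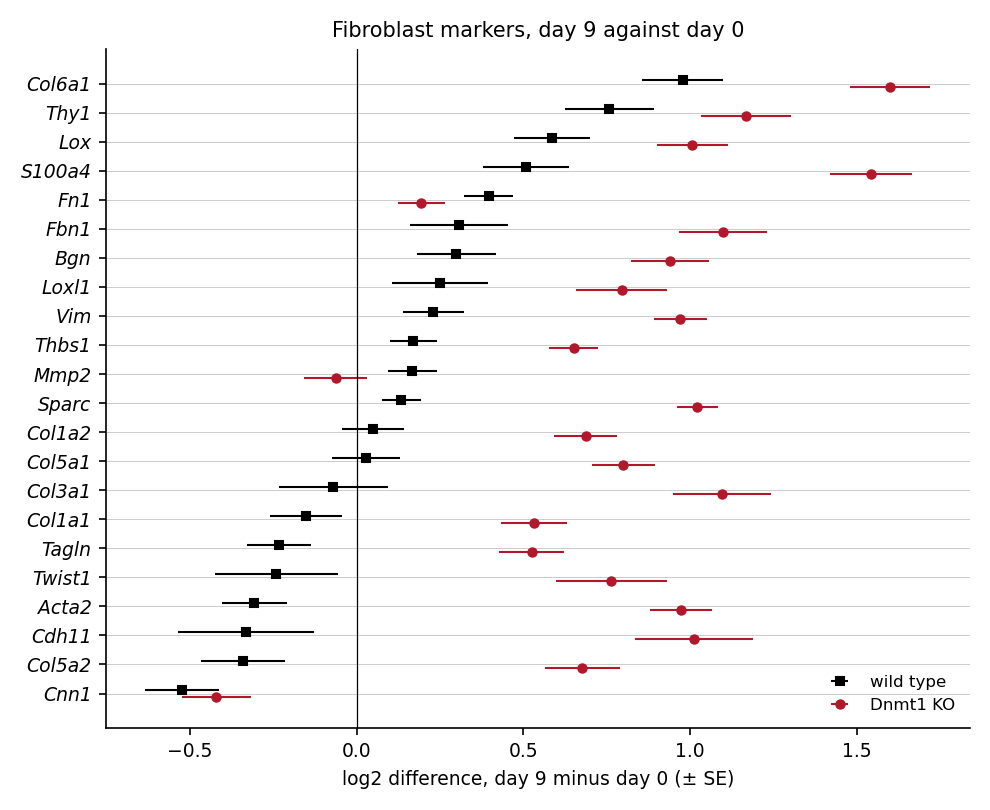
Log2 difference between day 9 and day 0 (x axis, with standard error bars) of the 22 tested fibroblast markers, one row a gene, in WT (black squares) and KO (red circles). The WT values lie on both sides of 0 with *Col6a1* at 0.98 and *Cnn1* at -0.52 as extremes, and the KO values lie further right for most markers.

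Genes of the primitive endoderm rose in the middle of the course and had returned, or gone below their start, by day 9. Of 10 tested, 9 were higher on days 1 and 3 than on days 0 and 9 and none was lower (median 0.69), with 9 or 10 higher whichever single library was left out, against 14.6% of all genes. At day 9, 1 of the 10 was higher than at day 0 (*Lamc1*, 13.0 and 13.7 RPKM on day 0 and 15.1 and 16.3 on day 9, limma adjusted p 0.0148, lost in some fits without 1 library). Lower were 4, among them *Cubn*, *Amn* and *Dab2*, beside 16.9% of all genes higher and 15.2% lower at day 9. *Cubn* (chromosome 2, 13197965 to 13413551, minus strand), the receptor that takes up proteins and vitamin B12 complexes together with its partner amnionless, had 3.55 and 3.87 RPKM on day 0, 4.96 and 4.20 on day 1, 5.79 and 6.42 on day 3 and 1.58 and 1.70 on day 9. The day 3 values were the highest and the day 9 values below all others (log2 difference -1.13, SE 0.0896, limma adjusted p 0.000209, against day 0). *Lrp2*, megalin, a multiligand endocytic receptor that is not on this list (chromosome 2, 69262397 to 69424122, minus strand), had 6.49 and 6.33 RPKM on day 0, 7.04 and 5.92 on day 1, 8.72 and 9.53 on day 3 and 2.92 and 2.72 on day 9. It was again highest on day 3 and lowest on day 9, while day 1 overlapped day 0 (log2 difference -1.16, SE 0.0828, limma adjusted p 0.000137). *Amn*, the amnionless partner, had 1.33 and 1.44 RPKM on day 0, 1.72 and 1.46 on day 1, 1.45 and 2.19 on day 3 and 0.512 and 0.586 on day 9 (log2 difference -1.20, SE 0.161, limma adjusted p 0.000892). *Dab2*, the endocytic adaptor, had 1.11 and 0.954 RPKM on day 0, 1.24 and 1.14 on day 1, 1.55 and 1.68 on day 3 and 0.558 and 0.633 on day 9 (log2 difference -0.70, SE 0.105, limma adjusted p 0.00135). Both were lowest on day 9. *Gata4*, a transcription factor of the lineage, had 0.685 and 0.704 RPKM on day 0, 1.13 and 1.06 on day 1, 1.23 and 1.31 on day 3 and 0.510 and 0.610 on day 9. Its day 3 values were above day 0, and its day 9 value did not differ beyond the spread (log2 difference -0.27, SE 0.105, limma adjusted p 0.0705). The basement membrane genes returned to their start: *Col4a1* had 10.8 and 12.04 RPKM on day 0, 16.6 and 15.6 on day 1, 21.5 and 23.1 on day 3 and 10.6 and 12.9 on day 9 (log2 difference 0.04, SE 0.0904, limma adjusted p 0.784), and *Lama1* had 7.89 and 8.87 RPKM on day 0, 12.4 and 12.6 on day 1, 15.2 and 16.0 on day 3 and 8.35 and 9.94 on day 9 (log2 difference 0.12, SE 0.0826, limma adjusted p 0.283).

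Nodal antagonists and simple keratins followed a like course, with 3 of 7 genes of the Nodal pathway higher and 1 lower on the middle days and 3 of 3 keratins higher, beside 14.6% and 7.83% of all genes. These keratins were the only genes tested of the 13 on the trophoblast and keratin list in the table. Centring and quantile normalization each called 2 of the 3 higher. *Lefty1*, a secreted inhibitor of Nodal, had 20.53 and 20.6 RPKM on day 0, 46.3 and 43.0 on day 1, 27.8 and 31.1 on day 3 and 14.9 and 14.3 on day 9. The peak was at day 1, and the day 9 values were below day 0 (log2 difference -0.49, SE 0.0625, limma adjusted p 0.000749, day 9 against day 0). *Lefty2*, a close relative, peaked at day 3, with 8.27 and 7.55 RPKM on day 0, 13.4 and 13.9 on day 1, 19.3 and 22.6 on day 3 and 8.73 and 9.97 on day 9, and its day 9 difference was not called (log2 difference 0.24, SE 0.0854, limma adjusted p 0.0561). The ligand *Nodal* itself had 6.42 and 6.66 RPKM on day 0, 6.41 and 6.44 on day 1, 6.71 and 6.55 on day 3 and 6.30 and 6.70 on day 9 (day 9 against day 0: log2 difference -0.01, SE 0.0553, limma adjusted p 0.897). The 8 values of the ligand lay within a narrow range. The keratin pair of simple epithelia moved together: *Krt8* had 4.78 and 5.37 RPKM on day 0, 8.37 and 8.08 on day 1, 11.5 and 13.1 on day 3 and 4.47 and 5.10 on day 9, and *Krt18* had 4.95 and 4.67 RPKM on day 0, 8.09 and 8.30 on day 1, 11.7 and 13.6 on day 3 and 5.19 and 5.93 on day 9. Both peaked at day 3 (log2 differences from day 0 of 1.26, adjusted p 3.31e-05, and 1.37, adjusted p 2.99e-05) and neither was called at day 9. *Krt19*, the other keratin tested, was called higher at day 9 (0.883 and 0.794 RPKM on day 0 and 1.04 and 1.26 on day 9, log2 difference 0.41, adjusted p 0.0357), a call lost after centring and in some fits without 1 library. *Nes*, the neural intermediate filament, was high on day 1 alone, with 1.76 and 1.61 RPKM on day 0, 3.58 and 3.87 on day 1, 2.08 and 1.84 on day 3 and 1.97 and 1.85 on day 9 (middle days: log2 difference 0.57, SE 0.0599, limma adjusted p 0.000253). *Cyp26a1*, which degrades retinoic acid, had 0.498 and 0.506 RPKM on day 0, 0.812 and 0.389 on day 1, 1.41 and 2.11 on day 3 and 0.191 and 0.418 on day 9 (middle days: log2 difference 1.19, SE 0.221, limma adjusted p 0.00473). *Srgn*, a proteoglycan core protein, had 4.12 and 4.37 RPKM on day 0, 6.90 and 4.95 on day 1, 8.33 and 10.2 on day 3 and 2.12 and 2.79 on day 9 (log2 difference 1.17, SE 0.112, limma adjusted p 0.000156), and *Pga5*, a pepsinogen, had 1.16 and 1.51 RPKM on day 0, 1.97 and 1.21 on day 1, 5.11 and 6.49 on day 3 and 0.659 and 1.34 on day 9 (log2 difference 1.35, SE 0.199, limma adjusted p 0.00158). *Cyp26a1*, *Srgn* and *Pga5* had their highest values on day 3. *Dppa5b* met the rule for naming with 3.14 and 3.17 RPKM on day 0, 22.1 and 4.55 on day 1, 29.4 and 5.25 on day 3 and 3.46 and 3.88 on day 9, but its replicates of days 1 and 3 lay several fold apart, and leaving out single libraries removed its call.

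**Figure D4:**
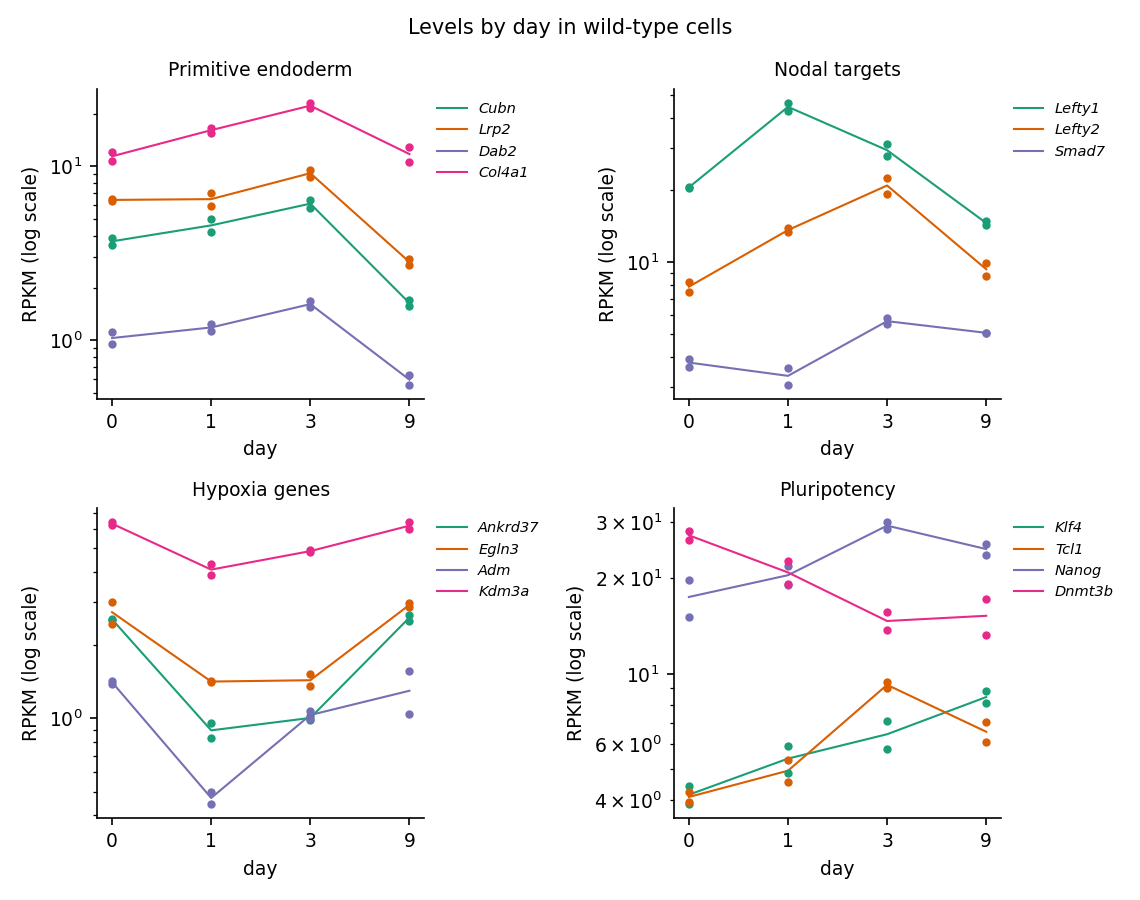
RPKM by day in WT for genes in 4 panels, chosen after their values were seen (log y axis, days evenly spaced, 1 point a library, lines through the means of the days). *Cubn* and *Lrp2* peak at day 3 and *Lefty1* at day 1, *Ankrd37* and *Egln3* are low on days 1 and 3, and *Klf4* is highest at day 9.

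Targets of the hypoxia response took the reverse course. Hypoxia-inducible factors, stabilised when oxygen-dependent prolyl hydroxylases are less active, bind DNA at a short core, often ACGTG, and drive glycolytic enzymes and their own regulators. Of 28 genes of hypoxia and glycolysis tested, 16 were lower on days 1 and 3 than on days 0 and 9 and none was higher (median -0.17), against 7.83% of all genes lower, and leaving out single libraries gave 13 to 17 lower and at most 1 higher. *Ankrd37*, an ankyrin repeat protein induced by hypoxia, had 2.56 and 2.54 RPKM on day 0, 0.954 and 0.833 on day 1, 1.02 and 0.985 on day 3 and 2.52 and 2.67 on day 9. The libraries of the middle days all lay below those of days 0 and 9, and the outer days did not differ beyond their spread (middle days: log2 difference -1.35, SE 0.0589, limma adjusted p 1.94e-06). *Egln3*, one of the prolyl hydroxylases and itself induced by hypoxia, had 2.45 and 3.01 RPKM on day 0, 1.43 and 1.41 on day 1, 1.35 and 1.52 on day 3 and 2.87 and 2.98 on day 9, with the same separation (middle days: log2 difference -0.94, SE 0.0689, limma adjusted p 4.18e-05). The promoters of these genes, the strongest of the fall, are shown as RefSeq gives them on GRCm38.p6, 250 bases before to 50 after the start, 5′ to 3′ on the gene's strand, with ACGTG or its reverse complement CACGT in capitals.

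Ankrd37 promoter (chr8:45999801-46000100, minus strand): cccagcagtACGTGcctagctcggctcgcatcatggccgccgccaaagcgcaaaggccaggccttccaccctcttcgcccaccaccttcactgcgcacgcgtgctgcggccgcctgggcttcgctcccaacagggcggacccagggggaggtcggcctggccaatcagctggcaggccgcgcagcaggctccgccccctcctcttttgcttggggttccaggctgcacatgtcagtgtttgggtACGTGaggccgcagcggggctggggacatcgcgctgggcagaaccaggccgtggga

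Egln3 promoter (chr12:54203825-54204124, minus strand): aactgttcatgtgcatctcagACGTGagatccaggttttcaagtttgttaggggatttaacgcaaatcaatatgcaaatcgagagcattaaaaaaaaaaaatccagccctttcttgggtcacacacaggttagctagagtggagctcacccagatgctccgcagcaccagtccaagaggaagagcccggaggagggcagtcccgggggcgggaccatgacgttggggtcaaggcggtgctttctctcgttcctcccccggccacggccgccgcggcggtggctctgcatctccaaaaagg

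*Ankrd37* held 2 matches and *Egln3* 1, whereas the same window of *Adm* held none. Of the 26 genes of the list with a promoter in the table, 14 (53.8%) held a match on either strand, as did 1998 of 7290 tested genes (27.4%) and 5315 of all 27025 promoters (19.7%). Among all genes called lower on days 1 and 3, it was 192 of 580 (33.1%). A match is only a run of letters and no evidence of binding. *Adm*, the vasodilator peptide adrenomedullin, had 1.43 and 1.39 RPKM on day 0, 0.446 and 0.497 on day 1, 0.992 and 1.07 on day 3 and 1.56 and 1.04 on day 9 (middle days: log2 difference -0.84, SE 0.107, limma adjusted p 0.000750). *Bnip3*, which links hypoxia to mitophagy, had 18.2 and 21.5 RPKM on day 0, 16.4 and 12.7 on day 1, 12.5 and 12.6 on day 3 and 20.01 and 19.1 on day 9 (middle days: log2 difference -0.54, SE 0.0764, limma adjusted p 0.00123). The glycolytic enzyme *Hk2* had 15.5 and 15.2 RPKM on day 0, 10.6 and 9.94 on day 1, 12.02 and 11.4 on day 3 and 16.4 and 15.7 on day 9 (middle days: log2 difference -0.51, SE 0.0384, limma adjusted p 4.44e-05), and *Ldha*, lactate dehydrogenase, 99.5 and 97.5 RPKM on day 0, 85.0 and 68.8 on day 1, 59.2 and 57.0 on day 3 and 82.4 and 72.8 on day 9 (middle days: log2 difference -0.39, SE 0.0636, limma adjusted p 0.00255). For *Bnip3* and *Hk2* the middle days did not overlap the outer ones, whereas *Adm* on day 3 and *Ldha* on day 1 did. At day 9 the list was back near its start, with 6 genes higher, 4 lower and a median of 0.03 (below 0 after centring). These counts were near the 16.9% and 15.2% of all genes called higher and lower at day 9. The split was 5 higher and 6 lower after centring, and 8 and 1 under quantile normalization. *Slc2a1*, the glucose transporter, had 35.1 and 39.5 RPKM on day 0 and 38.1 and 39.6 on day 9. Of the genes called higher at day 9, *Hk1* had 0.824 and 0.846 RPKM on day 0 and 1.22 and 1.40 on day 9 (log2 difference 0.59, SE 0.103, limma adjusted p 0.00261), and of those called lower, *Pgam1* had 89.5 and 91.9 RPKM on day 0 and 74.3 and 71.5 on day 9 (log2 difference -0.31, SE 0.0586, limma adjusted p 0.00344).

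Other groups were called on the middle days as well, where 14.6% of all genes were higher and 7.83% lower. Of 13 immediate early genes, which respond to growth factors and to stress, 7 were higher on the middle days and none lower, for example *Atf3* with 0.683 and 0.409 RPKM on day 0, 0.852 and 0.982 on day 1, 1.13 and 1.06 on day 3 and 0.456 and 0.601 on day 9 (log2 difference 0.81, SE 0.133, limma adjusted p 0.00255). Of 13 genes of FGF-ERK feedback, 7 were lower and 2 higher. *Ier3*, an early response gene, had 4.12 and 4.06 RPKM on day 0, 1.95 and 1.93 on day 1, 2.34 and 2.37 on day 3 and 3.24 and 3.93 on day 9 (log2 difference -0.81, SE 0.0597, limma adjusted p 4.18e-05), *Myc* had 0.766 and 0.794 RPKM on day 0, 0.363 and 0.474 on day 1, 0.368 and 0.369 on day 3 and 0.708 and 0.4996 on day 9 (log2 difference -0.67, SE 0.113, limma adjusted p 0.00298), and the phosphatase *Dusp4* went up, with 1.85 and 1.85 RPKM on day 0, 2.22 and 2.83 on day 1, 3.103 and 3.34 on day 3 and 1.72 and 2.13 on day 9 (log2 difference 0.57, SE 0.0846, limma adjusted p 0.00163). For *Atf3*, *Ier3*, *Myc* and *Dusp4* no library of the middle days overlapped the outer days. Of 18 genes of lysosome and metal handling, 10 were higher in the middle and 3 lower. The iron exporter *Slc40a1* was the one with the largest difference, at 0.485 and 0.556 RPKM on day 0, 0.748 and 0.886 on day 1, 1.00 and 1.05 on day 3 and 0.489 and 0.414 on day 9 (log2 difference 0.80, SE 0.0875, limma adjusted p 0.000309). The uncharacterised *2410004A20Rik* had 1.49 and 1.53 RPKM on day 0, 0.928 and 0.729 on day 1, 0.842 and 0.764 on day 3 and 1.77 and 1.36 on day 9 (log2 difference -0.84, SE 0.0949, limma adjusted p 0.000369).

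At day 9, genes of the amino acid response that were called were all lower. Of 22 targets of ATF4, the factor that induces amino acid synthesis and import under amino acid shortage, 13 were lower, none was higher, beside 15.2% and 16.9% of all genes, and the median was -0.29. Leaving out 1 library at a time gave 9 to 15 lower and at most 1 higher. At day 1, 13 were lower and 0 higher (median -0.23), beside 10.4% and 15.3% of all genes. At day 3 the list was divided, with 4 lower and 4 higher (median 0.02), beside 12.6% and 20.5%. *Cth*, which makes cysteine from cystathionine, had 16.1 and 16.3 RPKM on day 0, 9.09 and 9.51 on day 1, 9.57 and 11.7 on day 3 and 8.29 and 7.72 on day 9. All later libraries lay below day 0 (log2 difference -1.01, SE 0.0827, limma adjusted p 0.000215). The enzymes of serine synthesis fell, *Phgdh* of the first step from 24.5 and 26.4 to 18.6 and 18.3 RPKM (log2 difference -0.46, SE 0.0518, limma adjusted p 0.000581), *Psat1* from 29.6 and 29.0 to 23.2 and 21.1 RPKM (log2 difference -0.40, SE 0.0543, limma adjusted p 0.000913), and *Psph* from 10.4 and 11.4 to 6.54 and 6.18 RPKM (log2 difference -0.77, SE 0.0730, limma adjusted p 0.000451). For each of the 3, day 9 lay below both day 0 values. *Shmt2*, which passes carbon from serine to folate in mitochondria, went from 15.7 and 15.9 to 11.3 and 11.08 RPKM (log2 difference -0.49, SE 0.0566, limma adjusted p 0.000581). The transporter *Slc7a3* had 11.8 and 11.4 RPKM on day 0 and 8.48 and 7.89 on day 9 (log2 difference -0.50, SE 0.0570, limma adjusted p 0.000581). Stress targets of the same factor on this list, *Trib3* and *Chac1*, were not called at day 9 (3.01 and 1.94 RPKM on day 0 and 2.08 and 1.61 on day 9 for *Trib3*; log2 difference -0.07 for *Chac1*), and *Chac1*, which degrades glutathione, had been higher on day 3 (log2 difference 1.49, adjusted p 0.000428).

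Genes of cholesterol synthesis were more often higher than lower at day 9. Of 23 genes, 12 were higher and 1 was lower (median 0.25), beside 16.9% and 15.2% of all genes, with 8 higher without either the first day 0 or the second day 9 library. *Dhcr7*, the enzyme of the last step, had 1.38 and 1.36 RPKM on day 0, 2.17 and 2.34 on day 1, 2.02 and 1.60 on day 3 and 2.69 and 2.78 on day 9. Day 9 was above every earlier library (log2 difference 0.95, SE 0.0992, limma adjusted p 0.000548). *Stard4*, a sterol carrier, had 1.08 and 1.05 RPKM on day 0 and 1.91 and 1.80 on day 9 (log2 difference 0.74, SE 0.0786, limma adjusted p 0.000548), and *Cyp51*, lanosterol demethylase, 6.16 and 6.6 RPKM on day 0 and 9.18 and 9.27 on day 9 (log2 difference 0.53, SE 0.0853, limma adjusted p 0.00186). The days did not overlap for either gene. *Sqle* and *Lss* were not called, with log2 differences of 0.23 and 0.25. In KO, 5 of this list were higher and 3 lower at day 9, near or below the 25.4% and 22.2% of all genes.

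Mitochondrially encoded transcripts were more often higher than lower, 9 of 13 against 1 (median 0.33), beside 16.9% and 15.2% of all genes. Fewer were called higher without the second library of day 0 or of day 9. Their summed RPKM overlapped between the days, at 4097 and 3731 on day 0 and 4010 and 4124 on day 9. *mt-Co2* had 472 and 405 RPKM on day 0 and 563 and 586 on day 9 (log2 difference 0.39, SE 0.0794, limma adjusted p 0.00497) and *mt-Nd5* 62.9 and 59.0 RPKM on day 0 and 76.4 and 76.2 on day 9 (log2 difference 0.33, SE 0.0521, limma adjusted p 0.00178). Replication-dependent histone genes, whose transcripts lack poly(A) tails and are kept by ribosomal depletion, were lower for 18 and higher for 2 of 62 (median -0.14), beside 15.2% and 16.9% of all genes. This direction was not stable: quantile normalization gave 11 higher and 9 lower, and the fit without the second day 9 library 1 higher and 5 lower. Copies of these genes are nearly identical, so reads may be divided among them. *Hist1h2aa*, the testis and oocyte variant TH2A, stood apart (chromosome 13, 24026331 to 24026720, plus strand), with 9.94 and 7.39 RPKM on day 0, 7.34 and 5.53 on day 1, 3.58 and 3.68 on day 3 and 2.94 and 2.43 on day 9. The values of each day lay below those of the day before (day 9 against day 0: log2 difference -1.65, SE 0.151, limma adjusted p 0.000354). Of 28 cell cycle genes, 4 were higher and 4 lower, below both shares of all genes, with *Mki67* at 10.01 and 9.61 RPKM on day 0 and 14.1 and 15.0 on day 9 (log2 difference 0.56, SE 0.0606, limma adjusted p 0.000548) and *Cdc20* at 39.3 and 42.4 RPKM on day 0 and 30.2 and 30.0 on day 9 (log2 difference -0.44, SE 0.0542, limma adjusted p 0.000742).

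Imprinted genes moved both ways, 8 of 20 higher and 4 lower (median 0.02, below 0 after centring), beside 16.9% and 15.2% of all genes, with 4 higher and 1 lower without the second day 9 library. *H19*, the noncoding RNA expressed from the maternal allele (chromosome 7, 149761434 to 149764048, minus strand), had 9.14 and 9.68 RPKM on day 0, 11.5 and 12.7 on day 1, 16.5 and 17 on day 3 and 21.2 and 19.6 on day 9. The days did not overlap and each was above the one before (log2 difference 1.11, SE 0.0633, limma adjusted p 5.91e-05). *Igf2*, its paternally expressed neighbour, had 0.597 and 0.649 RPKM on day 0 and 1.14 and 1.16 on day 9 (log2 difference 0.79, SE 0.0947, limma adjusted p 0.000650). *Cdkn1c*, a growth inhibitor expressed from the maternal allele, went down, with 4.98 and 4.25 RPKM on day 0 and 2.59 and 2.30 on day 9 (log2 difference -0.89, SE 0.0947, limma adjusted p 0.000548). *H19* rose further in KO, from 9.78 and 10.4 to 73.4 and 68.0 RPKM (difference of the 2 changes 1.69, limma adjusted p 7.76e-09). Germline genes kept silent by DNA methylation were mostly unexpressed: 8 of 18 in the table passed the filter, 1 of these was lower at day 9 and none was higher. *Stra8*, which opens meiosis and is not on that list, had 1.16 and 1.14 RPKM on day 0 and 0.353 and 0.594 on day 9 (log2 difference -1.15, SE 0.187, limma adjusted p 0.00186).

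Of 8 Y-linked genes in the table, 2 were tested and both were lower, beside 15.2% of all genes. *Eif2s3y*, a subunit of a translation initiation factor (chromosome Y, 346986 to 365290, plus strand), had 1.68 and 1.74 RPKM on day 0, 1.65 and 1.42 on day 1, 1.33 and 1.39 on day 3 and 0.750 and 0.790 on day 9. Both day 9 values were well below every earlier one (log2 difference -1.06, SE 0.0903, limma adjusted p 0.000251). *Ddx3y*, an RNA helicase, had 0.666 and 0.644 RPKM on day 0, 0.617 and 0.620 on day 1, 0.606 and 0.560 on day 3 and 0.329 and 0.284 on day 9 (log2 difference -0.90, SE 0.116, limma adjusted p 0.000816). In KO the sum over the list's Y-linked genes went the other way, from 3.18 and 2.96 to 10.2 and 9.11 RPKM, while in WT it went from 3.08 and 3.096 to 1.39 and 1.40 RPKM. For *Eif2s3y* the changes of the arms differed (difference 2.01, limma adjusted p 6.12e-08). On the X chromosome the median log2 difference of 336 tested genes was -0.02.

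Among the other genes with the largest differences, some were surface or secreted proteins. *Ly6a*, the stem cell antigen Sca-1, had 0.654 and 0.417 RPKM on day 0, 0.552 and 0.732 on day 1, 1.09 and 1.12 on day 3 and 1.93 and 1.16 on day 9 (log2 difference 1.35, SE 0.228, limma adjusted p 0.00225). *Ly6g6e*, of the same family, had 0.644 and 0.704 RPKM on day 0 and 1.71 and 1.94 on day 9 (log2 difference 1.31, SE 0.135, limma adjusted p 0.000548). *Efemp1*, an extracellular matrix protein, had 0.804 and 0.755 RPKM on day 0 and 2.36 and 1.68 on day 9 (log2 difference 1.25, SE 0.144, limma adjusted p 0.000581), and *Sfrp1*, a secreted Wnt antagonist, had 2.06 and 2.18 RPKM on day 0, 3.17 and 3.02 on day 1, 3.86 and 3.67 on day 3 and 4.08 and 4.91 on day 9 (log2 difference 1.04, SE 0.0863, limma adjusted p 0.000215). For all 4 genes the day 9 values were above both day 0 values. *Dkk1*, a Wnt antagonist that Wnt signalling induces, fell from 0.870 and 0.792 to 0.320 and 0.356 RPKM (log2 difference -1.09, SE 0.128, limma adjusted p 0.000595). *Enpp2*, autotaxin, which makes lysophosphatidic acid, fell from 1.45 and 1.21 to 0.582 and 0.391 RPKM (log2 difference -1.30, SE 0.189, limma adjusted p 0.00123). *Spink3*, a trypsin inhibitor, had 2.31 and 1.72 RPKM on day 0 and 0.938 and 0.877 on day 9 (log2 difference -1.06, SE 0.210, limma adjusted p 0.00461). In these 3 falls the day 9 values were below both day 0 values.

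Intracellular proteins were among them too. *Fabp3*, a fatty acid carrier, was at its highest on day 3, with 29.1 and 33.5 RPKM on day 0, 66.4 and 81.2 on day 1, 102 and 112 on day 3 and 58.6 and 73.3 on day 9 (log2 difference 1.06, SE 0.118, limma adjusted p 0.000548). *Lrrc34* had 2.03 and 2.04 RPKM on day 0, 3.33 and 3.22 on day 1, 4.77 and 5.31 on day 3 and 4.49 and 5.09 on day 9 (log2 difference 1.19, SE 0.0772, limma adjusted p 0.000103). *Sncg*, a synuclein, had 0.740 and 0.727 RPKM on day 0 and 2.09 and 1.40 on day 9 (log2 difference 1.12, SE 0.158, limma adjusted p 0.00109), and *Tob1*, an antiproliferative factor, 1.01 and 0.886 RPKM on day 0 and 1.82 and 2.28 on day 9 (log2 difference 1.04, SE 0.107, limma adjusted p 0.000548). These 4 rose with no overlap between day 9 and day 0. *Plac8* fell from 3.33 and 3.51 to 1.82 and 1.11 RPKM (log2 difference -1.21, SE 0.172, limma adjusted p 0.00117), and the uncharacterised *2010107H07Rik* from 2.50 and 1.91 to 1.39 and 0.695 RPKM (log2 difference -1.07, SE 0.249, limma adjusted p 0.00933), a call that was lost without the first day 0 library (adjusted p 0.0621) or the second day 9 library (adjusted p 0.0542). The remaining named genes were *Gm12139* (0.252 and 0.455 RPKM on day 0 and 0.867 and 1.21 on day 9), *Btnl7* (0.983 and 0.884 RPKM on day 0 and 1.83 and 2.22 on day 9) and *Gm13270* (1.21 and 1.35 RPKM on day 0 and 0.479 and 0.507 on day 9), all with limma adjusted p-values under the threshold (0.00144, 0.000548 and 0.000215). *Gm12139* is uncertain, as it rested on 3 and 8 recovered reads on day 0 and 23 and 11 on day 9. *Gm13270* (chromosome 2, 13193229 to 13246418, plus strand) overlaps *Cubn* on the opposite strand. Whether counting used strand is not given, so its reads may be those of *Cubn*. *Lars2*, a mitochondrial leucyl-tRNA synthetase (chromosome 9, 123276058 to 123371782, plus strand), had by far the largest fold, with 1.08 and 1.17 RPKM on day 0, 2.77 and 4.18 on day 1, 8.65 and 1.08 on day 3 and 18.2 and 59.2 on day 9. Its replicates disagreed, since 1 day 3 library was at the day 0 level and the day 9 libraries differed about 3-fold (log2 difference 4.75, SE 0.752, limma adjusted p 0.00168).

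**Figure D5:**
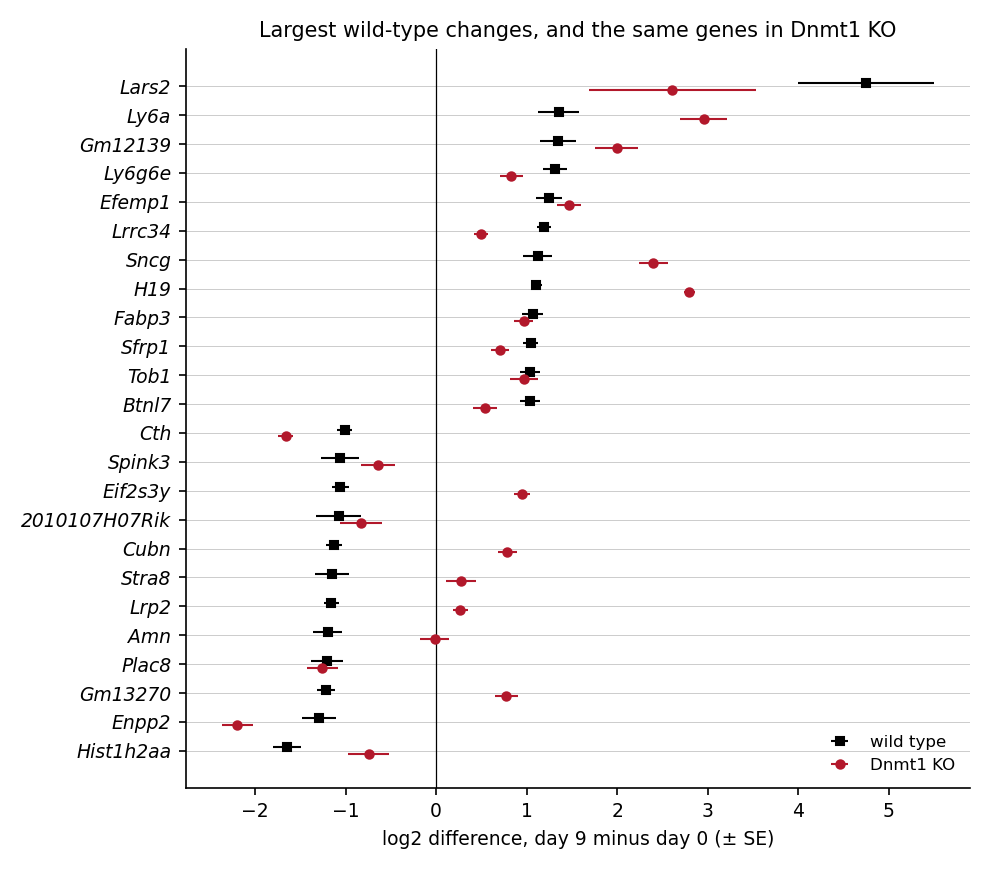
Log2 difference between day 9 and day 0 of the 24 genes named for day 9, in WT (black squares) and in KO (red circles), with standard error bars (x axis). *Cubn* lies at -1.13 in WT and 0.79 in KO, *Eif2s3y* at -1.06 and 0.95, and *Cth* at -1.01 and -1.66.

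At day 9 the remaining lists had few calls or were divided, beside 16.9% of all genes higher and 15.2% lower. Targets of p53 had 4 of 17 higher and 3 lower, genes of the interferon response 1 of 7 higher (*B2m*, 5.68 and 5.76 RPKM on day 0 and 7.09 and 7.56 on day 9, adjusted p 0.00417), heat shock genes 2 of 13 higher and 4 lower, and Wnt targets 2 of 5 higher and 1 lower. Genes of ER stress and folding were divided, with 5 of 16 higher and 6 lower, and *Hspa5*, the chaperone BiP, had 64.2 and 66.1 RPKM on day 0 and 48.8 and 48.0 on day 9. Targets of SRF and YAP, which respond to adhesion and density, had 6 of 20 higher and 6 lower at day 9, and on the middle days 9 higher and 1 lower, beside 14.6% and 7.83% of all genes. *Cyr61* had 5.08 and 5.48 RPKM on day 0, 6.52 and 7.52 on day 1, 9.70 and 9.82 on day 3 and 7.17 and 8.38 on day 9 (day 9 against day 0: log2 difference 0.55, SE 0.0860, limma adjusted p 0.00166). Of 7 BMP genes, 3 were higher and 1 lower at day 9, and the median of the list was below 0 (-0.15). Among those called higher, *Id4* had 0.285 and 0.360 RPKM on day 0, 0.484 and 0.523 on day 1, 1.13 and 1.19 on day 3 and 0.639 and 0.694 on day 9 (log2 difference 0.86, SE 0.122, limma adjusted p 0.00110), and *Bmp4* had 0.624 and 0.624 RPKM on day 0 and 0.992 and 1.22 on day 9 (log2 difference 0.73, SE 0.119, limma adjusted p 0.00190). A single gene of the 2-cell embryo list and 3 neural genes passed the filter, and of these only *Tubb3*, a neuronal tubulin, was called (lower, 6.28 and 5.90 RPKM on day 0 and 4.66 and 3.90 on day 9, adjusted p 0.00270).

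The genes called lower at day 9 had shorter exon lengths and higher levels in the median than all tested genes, and those called higher had longer exon lengths. Level enters the filter and the trend of the test, and length the RPKM. The lower genes had a median exon length of 2550 bases and 7 exons and a level of 5.88 RPKM (median of the mean over libraries), the higher ones 4110 bases, 11 exons and 2.41 RPKM, and all tested genes 3450 bases, 9 exons and 2.36 RPKM. In the upper tertile of expression 16.9% of genes were higher and 28.6% lower, and in the lower tertile 14.7% and 6.1%. Across chromosomes the share of tested genes called higher ran from 11.3% (X) to 26.2% (chromosome 14) when the Y chromosome and the mitochondrial genome were set aside, and the chromosome medians of the log2 difference from -0.03 to 0.07. The part of length, level and chromosome in the calls was not tested.

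Against the KO arm, whose libraries are separate, the WT course overlapped in part. Among 10532 genes tested in both, 892 of the 1783 higher in WT were also higher in KO, 50.0% of the WT list and 34.1% of the KO list, where 24.8% of all these genes were higher in KO. For the lower genes it was 872 of 1603, 54.4% of the WT and 36.9% of the KO list, beside 22.5% of all. In the opposite direction in KO were 102 of the genes higher in WT and 148 of those lower. The change itself differed between the arms, by the interaction term, for 588 (33.0%) of the genes higher in WT and 484 (30.2%) of those lower, against 24.4% of all. These genes were chosen on the same WT libraries that enter the interaction term, which by itself raises both shares. Nothing is therefore read from their excess over all genes. Over all 10673 genes of that fit, 1420 changed more positively in KO (13.3%) and 1222 more negatively (11.4%). Primitive endoderm genes were among those that parted, with 9 of 10 higher in KO at day 9 and 9 changing more positively there than in WT. *Cubn* went from 3.23 and 3.26 to 5.54 and 5.83 RPKM in KO (difference of the 2 changes 1.92, limma adjusted p 5.21e-07), and *Lrp2*, which is not on that list, from 6.25 and 6.34 to 7.71 and 7.49 RPKM (1.43, limma adjusted p 8.60e-07). The amino acid response list went the same way in both arms, with 18 of 22 lower in KO and none higher, beside 22.2% and 25.4% of all genes. *Cth* fell there from 18.2 and 16.3 to 5.23 and 5.54 RPKM, further than in WT (-0.65, limma adjusted p 0.00106).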

How the data were processed

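RNA-seq reads were aligned by the authors to NCBIM37 with TopHat2 (2.0.11) after trimming with Trim Galore (0.3.5), both named in the submitters' processing notes, and alignments with a mapping quality under 20 were discarded. The authors quantified genes in SeqMonk and deposited a table of linear RPKM for 26127 genes, whereas the study's methods name log2 RPM. Whether counting used strand is not given in the sources used here. With NCBIM37 exon lengths, between 99.4% and 99.7% of low values came out as whole reads (tolerance 0.1 read). Depth was taken from these steps, and 21.4% to 22.0% of the reads lay in exons.

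Differences were tested here with limma 3.58.1 in R 4.3.3 (lmFit and eBayes with a mean trend) on log2(RPKM + 0.1) for genes with a mean of at least 0.5 RPKM over the 8 libraries fitted, with Benjamini-Hochberg adjustment over all genes tested. This scale understates the fold of low genes. Contrasts were day 9, day 3 and day 1 against day 0 and days 1 and 3 against days 0 and 9, and a fit of 16 libraries gave the KO change and its difference from the WT change. Named genes were the 12 largest rises and 12 largest falls at day 9 and the 5 of each for the middle days, among genes called with at least 1 RPKM in the higher group and at least 300 bases of exon, plus *Dnmt1* and the genes of the lists. Some genes that the rule or the lists include are not reported here. Members and gene lists were chosen with earlier results of these data known. List entries that matched no row (*Sox1*, *Snurf*, *Kcnq1ot1*, *Hmgcs1* and 5 others) were not analysed here, and older symbols were matched through RefSeq synonyms. Alternatives were other pseudocounts, filters, scalings and library sets, voom, a replicate block and leaving out single libraries. The fits were tested on simulated data.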

Additional observations from a re-analysis of the deposited data

Results flagged for a closer look

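The results listed here differed between the arms by a test of the difference itself, the interaction term of a limma fit over 16 WT and KO libraries, given as the KO change minus the WT change between day 9 and day 0 on the log2 scale. In all, 2642 of 10673 genes passed at an adjusted p under 0.05, with 13.3% of all genes more positive in KO and 11.4% more negative. Among them were 16 of the 33 reported named genes apart from *Dnmt1*. Those named for day 9 were chosen on WT libraries that enter this term, which by itself raises their share, so nothing is read from it. *Dnmt1* itself, the gene deleted in the KO arm, differed by -2.60. More positive in KO were *Ly6a* (1.60), *Sncg* (1.28), *H19* (1.69), *Gm13270* (1.99), *Amn* (1.18), *Lrp2* (1.42), *Stra8* (1.43), *Cubn* (1.92) and *Eif2s3y* (2.01). *Gm13270* overlaps *Cubn* on the opposite strand and may hold its reads, so these are not counted as independent. Of the genes named for their middle days, *Srgn* (1.66), *Adm* (1.08), *2410004A20Rik* (2.12) and *Ier3* (0.87) were more positive as well. More negative in KO were *Lrrc34* (-0.69), *Enpp2* (-0.90) and *Cth* (-0.65). The count ranged from 1904 to 2648 genes when 1 library at a time was left out. Groups of 2 libraries are too small for a check of single outlying samples.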

How the results depend on the processing

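Changing the pseudocount, the filter or the scaling, fitting only the days compared, or using voom kept the day 9 counts in each direction, and the calls of each other comparison taken in both directions together, within 1.5 times their value. Single directions moved further: centring gave 1399 higher and 2176 lower genes on day 3 and 1376 lower in the middle days, and voom 1304 lower in the middle days. The fit of all 34 WT and KO libraries left 6 higher and 6 lower genes at day 9, 73 called on day 3, 37 on day 1, 90 for the middle days and 77 for the difference between arms. A fit of 28 libraries with no day 6 and no day 1 replicate 3, chosen after seeing the data, gave 917, 818, 1891, 1290, 1137 and 1192 in the same order. Leaving out 1 library at a time gave 828 to 1695 higher and 716 to 1519 lower genes at day 9, 1937 to 3483 called on day 3, 938 to 2696 on day 1, 1375 to 2131 for the middle days and 1904 to 2648 for the difference between arms. The lowest counts of the day 9, day 3 and day 1 comparisons came without the second library of that day, that of the middle days without the second day 3 library, and that of the difference between arms without the first KO day 0 library.

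A replicate block, with replicate numbers as a term, gave 1847 higher and 1675 lower genes at day 9, 3587 on day 3, 2768 on day 1, 2462 for the middle days and 2629 for the difference between arms. Same-numbered libraries correlated at -0.0394 to 0.137 in their deviations from the group means, so the numbers were not taken to pair them, and the block moved none of these counts by over 1.5 times. Of 690 alternative values of the named genes 650 stayed on their side of the threshold, 38 lost their call, most of them in the fit of 34 libraries, 2 gained one and 0 reversed. With 2 libraries a group and a depth of 24.3 mega-reads in the shallowest, depth limits the precision of genes near 0.5 RPKM.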
